A study of Mus musculus with 20 samples.

Results

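In mouse embryonic stem cells, 845 RAD21 peaks were called both before and after degradation of CTCF, at places where CTCF itself was called in neither state. RAD21 is a subunit of cohesin. The members were chosen by called overlaps alone: a peak of the RAD21 list of ΔCTCF had to overlap a RAD21 peak of WT by at least 1 bp, and no CTCF peak of WT and no CTCF peak of ΔCTCF. They made up 845 of the 17912 peaks of that RAD21 list, 845 of its 7893 peaks that overlapped a RAD21 peak of WT, and 845 of the 136043 peaks in the 12 lists of the series. Their RAD21 calls in WT and ΔCTCF and their lack of CTCF calls in these states are therefore given, not found.

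Cohesin is a ring-shaped complex that holds DNA and draws out chromatin loops. In the loop extrusion model it moves along the fiber until it meets a barrier, and CTCF bound to its motif is the best known barrier, so most cohesin peaks of mouse embryonic stem cells (mESCs) lie on CTCF sites. Cohesin is also found at active enhancers and promoters that lack CTCF, where its loader NIPBL and the Mediator complex bind. MAZ is a zinc finger protein that binds G-rich DNA, often at promoters, and has been described as an insulator.

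Chromatin immunoprecipitation with sequencing (ChIP-seq) of CTCF, MAZ and RAD21 was compared in 4 states of E14 mESCs, and the series asks how the loss of these factors, singly or jointly, changes the places of cohesin. In every state, the control included, CTCF carried an auxin-inducible degron, a tag that leads to its breakdown when auxin is added. WT cells were untreated, ΔCTCF cells had 2 days of auxin, ΔMAZ cells carried a Maz knockout in the same degron background and were untreated, and ΔCTCF/ΔMAZ cells were the knockout cells with 2 days of auxin. All cells were grown with LIF and 2i. Titles of the knockout samples all carry the same tag, B2, so the knockout is represented by what appears to be a single line, and a property of that line cannot be told apart from the loss of MAZ. There was 1 peak list per antibody and state and no replicate list. Every difference below is thus between single libraries, no p-value is given, and the 95% intervals (Wilson for a share, Newcombe for a difference of shares) cover counting error over peaks only.

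The targeted proteins moved with the labels. CTCF lists held 26394 peaks in WT, 26053 in ΔMAZ, 2381 in ΔCTCF and 2570 in ΔCTCF/ΔMAZ, and MAZ lists held 6265 peaks in WT, 6759 in ΔCTCF and 33 in each knockout state. The RAD21 list of WT held 20371 peaks, that of ΔMAZ 20872, that of ΔCTCF 17912 and that of ΔCTCF/ΔMAZ 6400. Depth was unequal. An index of depth solved from the lists put the RAD21 library of ΔCTCF at 2.34 times that of ΔCTCF/ΔMAZ, ΔMAZ at 1.39 times and WT at 1.07 times. A peak missing from a shallower list may be present but uncalled, and the part of depth in the shares below was not tested.

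Windows of 200 bases centered on the RAD21 summit are shown for 8 members that the results turn on: strong distal sites, both outer peaks of the Sox2 distal region, and promoters. The sequences are from the RefSeq copy of the mouse assembly GRCm38 (mm10), plus strand, with the summit at base 101 of each window, and none of these windows touches an annotated exon. Capitals mark matches on either strand to 11 short motifs, namely the MAZ core (GGGAGGG), TEAD core (CATTCC), ETS core (CCGGAAG), E-box (CACGTG), octamer (ATGCAAAT), KLF core (GGGTGTGG), ESRRB core (TCAAGGTCA), AP-1 site (TGANTCA), NRF1 core (GCGCATGCG), NFY box (CCAATCA) and CRE (TGACGTCA), none of which contains another.
Sulf1 intron, chr1:12744777-12744976: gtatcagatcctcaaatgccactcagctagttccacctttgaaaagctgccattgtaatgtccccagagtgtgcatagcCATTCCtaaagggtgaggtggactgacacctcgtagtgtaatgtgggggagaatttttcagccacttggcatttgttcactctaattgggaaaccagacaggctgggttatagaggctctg
Sox2 distal, far peak, chr3:34761199-34761398: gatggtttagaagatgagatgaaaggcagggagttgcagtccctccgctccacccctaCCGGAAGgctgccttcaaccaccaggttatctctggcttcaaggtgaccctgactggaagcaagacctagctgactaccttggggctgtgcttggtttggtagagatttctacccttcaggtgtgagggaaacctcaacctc
Sox2 distal, near peak, chr3:34756711-34756910: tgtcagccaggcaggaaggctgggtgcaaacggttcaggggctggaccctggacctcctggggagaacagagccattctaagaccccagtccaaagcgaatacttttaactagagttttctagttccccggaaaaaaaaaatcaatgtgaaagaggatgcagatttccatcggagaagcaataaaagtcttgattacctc
Tbl1xr1 upstream, chr3:21936002-21936201: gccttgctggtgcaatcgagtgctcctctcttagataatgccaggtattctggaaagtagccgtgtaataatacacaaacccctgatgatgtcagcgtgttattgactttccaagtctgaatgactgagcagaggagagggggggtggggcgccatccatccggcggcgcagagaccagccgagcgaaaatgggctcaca
Rybp upstream, chr6:100378280-100378479: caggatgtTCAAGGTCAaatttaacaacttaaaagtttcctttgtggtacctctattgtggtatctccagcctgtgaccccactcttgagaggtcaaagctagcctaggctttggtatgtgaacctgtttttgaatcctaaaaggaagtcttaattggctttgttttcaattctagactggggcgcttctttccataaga
Cited2 promoter, chr10:17722972-17723171: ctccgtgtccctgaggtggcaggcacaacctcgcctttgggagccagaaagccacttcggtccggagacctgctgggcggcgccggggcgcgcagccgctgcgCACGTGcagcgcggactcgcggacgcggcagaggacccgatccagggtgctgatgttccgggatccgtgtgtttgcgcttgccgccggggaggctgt
Phyhipl promoter, chr10:70599685-70599884: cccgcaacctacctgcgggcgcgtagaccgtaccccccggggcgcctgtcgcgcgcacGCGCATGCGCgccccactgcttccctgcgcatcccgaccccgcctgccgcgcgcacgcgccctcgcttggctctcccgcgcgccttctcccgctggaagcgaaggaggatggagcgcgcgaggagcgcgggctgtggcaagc
Hs6st1 promoter, chr1:36068129-36068328: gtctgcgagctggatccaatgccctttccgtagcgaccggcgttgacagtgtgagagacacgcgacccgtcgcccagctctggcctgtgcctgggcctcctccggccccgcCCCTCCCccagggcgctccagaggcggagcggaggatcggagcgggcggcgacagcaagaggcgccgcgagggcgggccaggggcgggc
No match was found in the windows of the near Sox2 peak and of the Tbl1xr1 upstream peak. The Sulf1 window holds the TEAD core, the far Sox2 window the ETS core, the Rybp window the ESRRB core, the Cited2 window the E-box, the Phyhipl window the NRF1 core on both strands, in overlapping letters, and the Hs6st1 window the MAZ core. Over all 17912 RAD21 peaks of ΔCTCF, windows of this length held the TEAD core in 13.3%, the MAZ core in 11.2%, the E-box in 4.33%, the ETS core in 3.98%, the ESRRB core in 1.12% and the NRF1 core in 0.642%. Over the 845 members, these shares were 14.3%, 16.2%, 3.91%, 3.67%, 1.66% and 0.473% in the same order. These are matches of letters, not evidence of bound factors.

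Of the 10 members of highest fold enrichment in ΔCTCF, 9 lay over 10 kb from any start site. Fold enrichment is the pileup of reads over local background at the summit, with a small constant added to both. It is not on a common scale between libraries, so each value is best read against its own list. The strongest member of the ΔCTCF list lay in an intron of Sulf1, an extracellular sulfatase of heparan sulfate, 16758 bp from a transcription start site (TSS). Its fold enrichment in ΔCTCF was 17.7, after 11.0 in WT, and in the knockout cells it was 11.97 before (ΔMAZ) and 10.5 after auxin (ΔCTCF/ΔMAZ), and no MAZ peak overlapped it. It was called in all 4 libraries and ranked at percentile 80.8 of the ΔCTCF/ΔMAZ list.

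A member 140550 bp from the nearest coding TSS, that of Tbl1xr1, which encodes a subunit of nuclear receptor corepressor complexes, had a WT fold enrichment of 13.1, and values of 15.0 for ΔCTCF, 13.9 for ΔMAZ and 9.63 for ΔCTCF/ΔMAZ. It carried a MAZ peak in WT (5.93) and ΔCTCF (4.63). A member 90895 bp upstream of Rybp, a subunit of variant Polycomb repressive complexes, had values of 7.39, 13.8, 11.6 and 6.59 in the same order, with no MAZ peak. These members, too, were called in every RAD21 list.

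Other strong distal members ranked lower in the other lists than in ΔCTCF, to different degrees. A member 98812 bp from the TSS of Cep170, a centrosomal protein, had 7.39 (WT), 16.0 (ΔCTCF), 5.02 (ΔMAZ) and 5.55 (ΔCTCF/ΔMAZ). It stood at percentile 32.4 of the WT list and 10.5 of the ΔMAZ list. A member in an intron of Dpp6, an auxiliary subunit of potassium channels, had 6.76, 13.9, 4.88 and 7.55, at percentile 8.6 of the ΔMAZ list and 62 of the ΔCTCF/ΔMAZ list. A member whose nearest coding TSS was that of the TGF-beta receptor Tgfbr2, 252164 bp away, had 5.76, 15.2, 5.12 and 3.87, and it lay 526 bp from a CTCF peak of WT. The value in ΔCTCF was the highest of the 4 at each of these sites, in the deepest RAD21 library. The sites were named for their high fold enrichment in ΔCTCF, which favors this order and the lower ranks elsewhere.

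Strength in ΔCTCF did not ensure a call in the knockout cells. A member 37727 bp from the olfactory receptor gene Olfr761 had 8.08 in WT and 12.3 in ΔCTCF and no RAD21 peak in either knockout list, with 41.7% of the 300 bp around its summit repeat-masked. A member 652806 bp from the nearest coding TSS and 81578 bp from the non-coding gene Gm48370 had 6.96 in WT, 16.7 in ΔCTCF and 6.01 in ΔMAZ and was not called in ΔCTCF/ΔMAZ. A MAZ-bound member in an intron of Glt1d1, a glycosyltransferase gene, had 6.32 in WT, 11.9 in ΔCTCF and 4.58 in ΔCTCF/ΔMAZ and was not called in ΔMAZ.

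As a group, the members were weak in WT and of middle strength in ΔCTCF. Their median rank was percentile 9.44 of the WT list and 60.7 of the ΔCTCF list, and RAD21 peaks kept on a CTCF peak (n = 7048) sat at percentile 78 of both lists. Because these calls chose the members, the ranks are a description. When each RAD21 list was limited to its strongest 6400 peaks, 3 members were left. The pileup at the summit had a median of 12 reads in WT and 24 in ΔCTCF. The members were broad in ΔCTCF, with a median width of 461 bp against 341 bp for kept peaks with CTCF and 293 bp for relocalized peaks without CTCF, those with no RAD21 peak in WT (n = 9707). Summits of the members moved by a median of 73 bp between WT and ΔCTCF, against 17 bp at kept peaks with CTCF.

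In the knockout lists, which the rule did not use, the 447 members called in ΔMAZ had a median percentile of 15.8 and the 294 called in ΔCTCF/ΔMAZ one of 30.1. Kept peaks with CTCF stood at 79.8 and 68.3. Over the 207 members called in both knockout lists, the median percentile went from 18.3 in ΔMAZ to 34.3 in ΔCTCF/ΔMAZ, whereas the 3899 kept peaks with CTCF called in both went from 87.1 to 68.3. The lists differ in length, so these ranks are relative to different numbers of peaks.

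**Figure D1:**
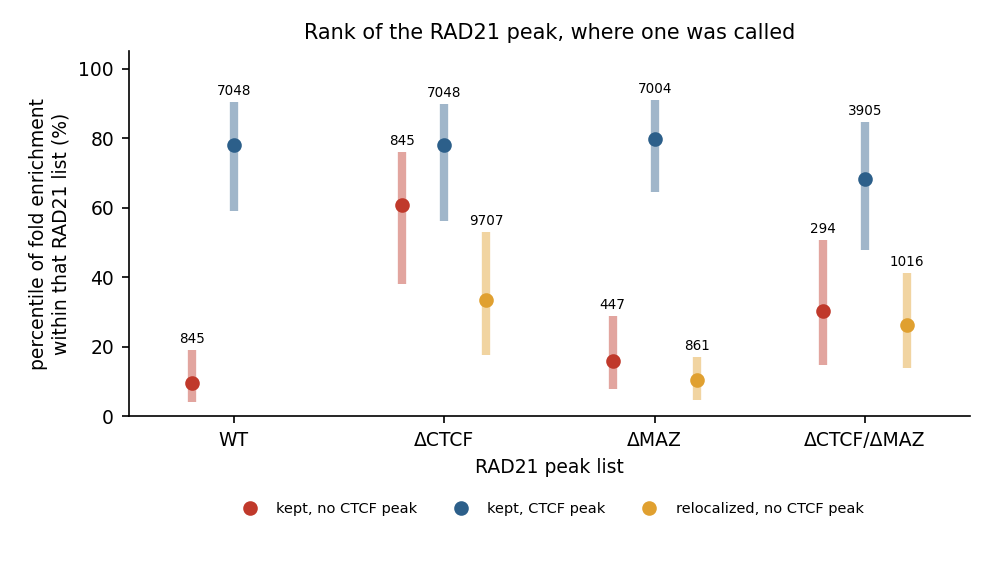
Median (point) and middle range from the 25th to the 75th percentile (bar) of the rank of RAD21 peaks by fold enrichment within each of the 4 RAD21 lists, with the number of peaks called above each bar. Peaks kept without CTCF had medians of 9.44 (WT), 60.7 (ΔCTCF), 15.8 (ΔMAZ) and 30.1 (ΔCTCF/ΔMAZ), and the WT and ΔCTCF ranks come from the lists that chose them.

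Of the 2853 RAD21 peaks of WT with no CTCF peak, 855 (30%, 28.3 to 31.7) lay under a member and 1998 were lost in ΔCTCF. The lost ones often held the letters of a CTCF site. The CTCF core, searched with up to 1 mismatch in the 100 bp at the summit on both strands, was present at 37.5% (35.4 to 39.7) of lost peaks and at 3.43% (2.4 to 4.89) of members, a difference of -34.1 points (-36.5 to -31.6). The members' share was 6.15% with windows of 200 bp and 0.237% with no mismatch allowed. Over all RAD21 peaks of ΔCTCF the share was 26.3%, and at kept peaks with CTCF it was 63%. In windows 1 kb to either side, it was 1.3% for members and 1.2% for lost peaks. The rule removed CTCF peaks, so the share is read against the classes that also lacked one. Members lay below lost peaks and above relocalized peaks without CTCF, of which 1.47% held the core (interval of the difference 0.895 to 3.43 points), and above their own flanks. Among the WT peaks without CTCF, 4.94% (3.64 to 6.69) of the 789 with the core were kept, against 39.5% (37.4 to 41.7) of the 2064 without it. A reciprocal overlap of 50% lets RAD21 peaks with a partly overlapping CTCF peak pass the rule, and the share of the then 669 members with the core was 20.2%, with a CTCF peak of ΔMAZ at 22.1%.

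CTCF calls in ΔMAZ, though not in ΔCTCF/ΔMAZ, also separated kept from lost peaks. A CTCF peak of ΔMAZ overlapped 34 members, 4.02% (2.89 to 5.57), against 41.1% of all RAD21 peaks of ΔCTCF, 99.5% of kept peaks with CTCF and 30.3% (28.4 to 32.4) of lost peaks without one. Relocalized peaks without CTCF had fewer still, 0.422%, a difference of 3.6 points (2.46 to 5.15). After auxin in the knockout cells, 1 member had a CTCF peak (0.118%), against 13.1% of all RAD21 peaks of ΔCTCF and 0.0501% of lost peaks, a difference from the latter of 0.0683 points (-0.184 to 0.619). The 34 members with a CTCF peak in ΔMAZ behaved apart from the rest in calls, with a RAD21 peak of ΔMAZ at 33 of them (97.1%) and of ΔCTCF/ΔMAZ at 4 (11.8%, 4.67 to 26.6). A set of 788 members (93.3%) had neither the core nor a CTCF peak of ΔMAZ, and 51.1% of these were called in ΔMAZ and 36% in ΔCTCF/ΔMAZ, close to the values for all members.

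The distance to CTCF varied widely. The median gap from a member to the nearest CTCF peak of WT was 31832 bp, 63 members (7.46%) lay within 1 kb of one, and 650 (76.9%) within 100 kb. At the edge of the rule, the closest members touched a CTCF peak at a gap of 0 bp (chr13:69739555-69739878 and chr2:132701773-132701995) or lay 2 bp away (chr13:34345044-34345254), with fold enrichments of 4.64, 4.18 and 4.05. The kept peaks just outside the rule overlapped a CTCF peak of WT by 11, 11 and 15 bp and had 4.5, 3.25 and 3.81.

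In position, 250 members (29.6%, 26.6 to 32.8) had the summit within 1 kb of a TSS, called promoter members here. The share was 27.5% over all RAD21 peaks of ΔCTCF, so it was near the background, the difference being 2.13 points (-0.922 to 5.36). It stood between the comparison classes. It was 15.7 points (12.6 to 18.9) above kept peaks with CTCF, 16.5 points (13.2 to 20) above lost peaks without CTCF, and 7.11 points lower (-10.2 to -3.8) than for relocalized peaks without CTCF. By annotation at the summit, 444 members were intergenic, 270 intronic, 69 in a UTR, 26 in a coding exon and 36 in another exon. Their shares were 52.5%, 32%, 8.17%, 3.08% and 4.26%, against 50.9%, 34.1%, 7.98%, 3.07% and 3.9% of all RAD21 peaks of ΔCTCF, and the interval of each difference includes 0. The median distance to a TSS was 10407 bp, and 178 members lay over 50 kb from any.

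Promoter members and distal members (summit over 1 kb from a TSS, n = 595) differed in composition. Over the 300 bp at the summit, median GC content was 65.2% at promoter members and 48.3% at distal members, and the ratio of observed to expected CpG was 0.78 and 0.18. The distal members were the stronger ones in ΔCTCF, with a median fold enrichment of 5.72 against 4.87.

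The strongest member at a coding promoter lay 310 bp upstream of Ptgfrn, a membrane protein of the immunoglobulin superfamily. The fold enrichment there was 11.8 in WT and 15.3 in ΔCTCF, and 11.8 and 11.3 in the knockout cells without and with auxin, with a MAZ peak of 3.11 in WT and 10.2 in ΔCTCF. At the Tbl1xr1 TSS, 31 bp away, the values were 12.4, 12.2, 13.5 and 11.8, with MAZ peaks of 5.71 and 5.49. Both promoters kept a RAD21 peak in all 4 states, including the knockout states in which MAZ was not called there.

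The other 3 of the 5 strongest promoter members were also called in every RAD21 list. Cited2, a coactivator that binds CBP and p300, had a member 146 bp upstream with 10.5 (WT), 10.7 (ΔCTCF), 9.33 (ΔMAZ) and 9.39 (ΔCTCF/ΔMAZ). Phyhipl, a relative of a phytanoyl-CoA hydroxylase partner, had 4.35, 10, 4.25 and 6.41 at a member 494 bp upstream. Hs6st1, a heparan sulfate sulfotransferase, had 8.23, 10, 7.71 and 5.14 at a member 171 bp upstream, which also held the MAZ core and MAZ peaks of 7.94 in WT and 9.28 in ΔCTCF. All overlapped a MAZ peak of ΔCTCF.

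MAZ overlap was a feature the members shared with relocalized cohesin rather than with cohesin on CTCF. A MAZ peak of ΔCTCF overlapped 184 members (21.8%, 19.1 to 24.7), against 11.9% of all RAD21 peaks of ΔCTCF, and a MAZ peak of WT overlapped 188 (22.2%, 19.6 to 25.2), against 11.1%. The difference in the share with a MAZ peak of ΔCTCF was 19.2 points (16.6 to 22.2) over kept peaks with CTCF, 19.4 (16.6 to 22.3) over lost peaks without CTCF and 3.98 (1.22 to 6.99) over relocalized peaks without CTCF. In all, 241 members (28.5%) had a MAZ peak in WT or ΔCTCF, against 15% of all RAD21 peaks of ΔCTCF, and 131 (15.5%) in both, against 7.96%. None of the 845 overlapped a MAZ peak of either knockout list, which allows a share of up to 0.453%, and with 33 peaks in each of these lists the share over all RAD21 peaks of ΔCTCF was 0.0112%, so this count says nothing about the members. MAZ summits lay a median of 99 bp from the RAD21 summit. With a reciprocal overlap of 50% in place of 1 bp, the share with a MAZ peak of ΔCTCF was 11.4% (9.17 to 14) of 669 members, still above the 1.09% at kept peaks with CTCF, but the separation from relocalized peaks, at 10.9%, was lost.

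MAZ peaks of ΔCTCF were more frequent at promoter members, 112 of 250 (44.8%, 38.8 to 51), than at distal members, 72 of 595 (12.1%, 9.72 to 15). The MAZ core at the summit was present in 7.34% (5.77 to 9.3) of members, against 5.76% of all RAD21 peaks of ΔCTCF (difference 1.58 points, -0.0289 to 3.57), 7.81% of relocalized peaks without CTCF (-0.472 points, -2.14 to 1.55) and 4.62% (3.71 to 5.72) of the flanks 1 kb away. It was at 14.1% (9.83 to 19.9) of members with a MAZ peak of ΔCTCF and 5.45% (3.96 to 7.45) of those without, and windows of 200 bp raised the share of all members to 16.2%.

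**Figure D2:**
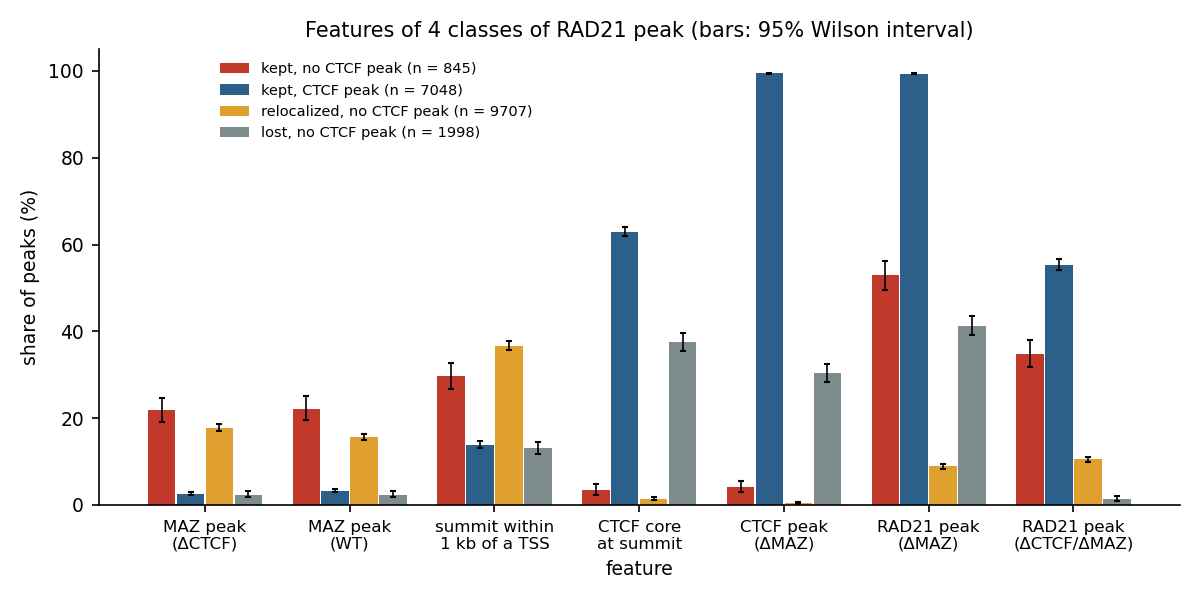
Share of peaks (%) with each of 7 features in 4 classes of RAD21 peak, with bars from 0 and error bars for the 95% Wilson interval. Members (red) had a MAZ peak of ΔCTCF in 21.8% and a RAD21 peak of ΔMAZ in 52.9%, between kept peaks with CTCF (2.54% and 99.4%) and relocalized peaks without CTCF (17.8% and 8.87%) in the second of these.

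Fewer members than CTCF-bound RAD21 peaks were called in the Maz knockout cells. A RAD21 peak of ΔMAZ overlapped 447 members (52.9%, 49.5 to 56.2), against 47.4% of all RAD21 peaks of ΔCTCF, 99.4% of kept peaks with CTCF and 8.87% of relocalized peaks. A RAD21 peak of ΔCTCF/ΔMAZ overlapped 294 members (34.8%, 31.7 to 38.1), against 29.5% of all, 55.4% of kept peaks with CTCF and 10.5% of relocalized peaks. Of the members, 207 (24.5%) were called in both knockout lists, 240 (28.4%) in ΔMAZ only, 87 (10.3%) in ΔCTCF/ΔMAZ only and 311 (36.8%) in neither. The share in both was equal to the 24.6% of all RAD21 peaks of ΔCTCF within counting error (difference -0.0898 points, -2.94 to 2.99), and the share in either, 63.2%, was above the 52.3% of all by 10.9 points (7.47 to 14.1). Since the members rank low in WT, their shares in ΔMAZ, a state with CTCF, were also compared at like strength.

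With the ΔCTCF list cut into 5 equal groups by fold enrichment and starting from the weakest, members were called in ΔMAZ in 36.5%, 43.5%, 46.7%, 58% and 70.7%. Kept peaks with CTCF ran from 96.6% to 99.9% and relocalized peaks from 4.92% to 38.3%. The members stood between these classes in each group, and the smallest gap to kept peaks with CTCF was in the strongest group, -29.3 points (-37 to -22.6). By definition, relocalized peaks lack a RAD21 peak of untreated WT and members have one, and ΔMAZ cells were untreated too. How far this sets the gap to relocalized peaks was not tested. Grouped by strength in WT instead, 43.1% (39.4 to 47) of the 656 WT peaks under members in the weakest group were called in ΔMAZ, against 88.7% (83.9 to 92.3) of kept peaks with CTCF of that group and 24% (21.5 to 26.6) of lost peaks without CTCF. In the next groups the share under members was 70.1% of 147, 90.6% of 32, 100% of 16 and 100% of 4. The difference from kept peaks with CTCF went from -45.6 points in the weakest group to -27.4 (-35.3 to -20.4), -8.81 (-23.7 to -2.64), 0.0515 (-19.3 to 0.291) and 0, and that from lost peaks was 19.1 (14.6 to 23.7), 21.9 (13.1 to 29.9), 13 (-2.51 to 21.1), 5.26 (-14.4 to 12.8) and 0. Members thus stood apart from these classes where they were weak in WT, and their small numbers limit the stronger groups.

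In ΔCTCF/ΔMAZ the comparison of members with kept peaks with CTCF depended on the list that set the strength. By strength in ΔCTCF they lay close in all but the strongest group. From the weakest to the strongest group, members were called in 7.83%, 16.5%, 26.6%, 42% and 66%, and kept peaks with CTCF in 12.2%, 18%, 23.4%, 39.1% and 86%. The differences were -4.41 points (-9.58 to 2.6), -1.46 (-8.03 to 6.9), 3.23 (-3.22 to 10.5) and 2.85 (-3.22 to 9.11) in the first 4 groups, where the intervals include 0, and -20 points (-27.9 to -12.8) in the strongest. Relocalized peaks were below members in each group, by 2.88 points (-0.871 to 9.3) in the weakest, where the interval includes 0, and by 8.25 to 21.6 points in the others. By strength in WT, members were called in ΔCTCF/ΔMAZ in 30.5%, 42.9%, 65.6%, 25% and 25% (n = 656, 147, 32, 16 and 4) and kept peaks with CTCF in 27.9%, 32.4%, 40.1%, 46.9% and 70.7%. The differences were 2.56 points (-4.55 to 9.14), 10.5 (1.79 to 19.4), 25.5 (7.95 to 39.8), -21.9 (-36.9 to 2.71) and -45.7 (-66.2 to -0.759), so members stood higher in groups 2 and 3 and lower in the strongest, which held 4.

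**Figure D3:**
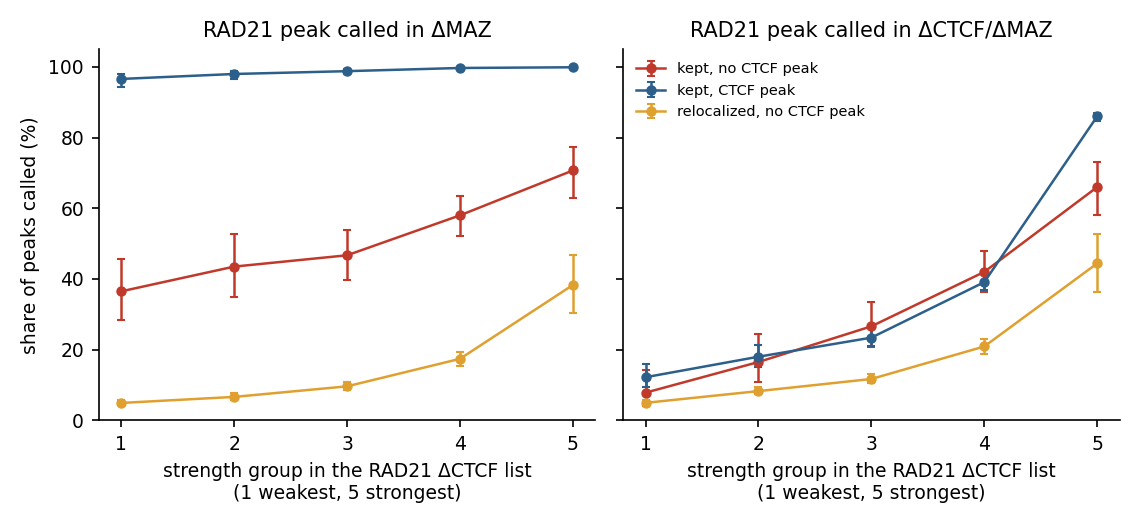
Share of RAD21 peaks of ΔCTCF (%) called in ΔMAZ (left) and in ΔCTCF/ΔMAZ (right) by strength group, with 95% Wilson intervals. On the left, members rose from 36.5% to 70.7% and stayed below kept peaks with CTCF, which ran from 96.6% to 99.9%, and on the right both classes overlapped up to group 4.

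In the state without CTCF and MAZ, members that had a MAZ peak in ΔCTCF were called more often than those that had none. In ΔCTCF/ΔMAZ, a RAD21 peak was called at 90 of the 184 members with a MAZ peak of ΔCTCF (48.9%, 41.8 to 56.1) and at 204 of the 661 without (30.9%, 27.5 to 34.5), a difference of 18.1 points (10.1 to 26). At promoter members the difference was 28.4 points (16.5 to 39.4), from 50.9% with MAZ and 22.5% without, and at distal members 12.8 points (0.996 to 24.8). Over the 5 strength groups the difference was 12 points (-0.406 to 31.9), 22 (2.3 to 46), 8.21 (-5.69 to 23.6), 23.8 (9.69 to 36.7) and 17.3 (-0.873 to 31), positive in each, with an interval above 0 in the second and the fourth. With a reciprocal overlap of 50% the values were 28.9% of 76 members with MAZ and 26% of 593 without, a difference of 2.98 points (-6.73 to 14.5), so the separation was lost under that setting. Relocalized peaks without CTCF showed a difference of the same sign, 17% with MAZ and 9.06% without (7.91 points, 6.09 to 9.85), and it was 4.98 points (3.21 to 6.99) with reciprocal overlap.

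In ΔMAZ, where CTCF was present, calls hardly separated members by MAZ. They were made at 57.1% of members with a MAZ peak of ΔCTCF and 51.7% of those without, a difference of 5.33 points (-2.83 to 13.2). Only in the strongest group was the interval above 0, at 22.7 points (5.83 to 34.2), from 88.2% of 34 members and 65.5% of 116. Promoter and distal members did not separate in ΔCTCF/ΔMAZ, with 35.2% and 34.6% called and a difference of 0.578 points (-6.3 to 7.72). Whether the members called in ΔMAZ keep RAD21 after auxin was also compared. Of these 447, 207 (46.3%) had a peak in ΔCTCF/ΔMAZ, against 4404 of the 8496 RAD21 peaks of ΔCTCF called in ΔMAZ. The difference from kept peaks with CTCF called in ΔMAZ was -9.36 points (-14.1 to -4.58). It was 17.3 points (11.7 to 22.8) over relocalized peaks and 44.6 points (39.9 to 49.3) over lost peaks without CTCF. Lost peaks were defined by the lack of a RAD21 call in ΔCTCF, the other auxin state, so a low share is built into that class.

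The octamer, KLF core and ETS core were more frequent at member summits than in the members' flanks, with intervals apart, and the ESRRB core was so with overlapping intervals. Over the 100 bp at the summit, the octamer bound by POU factors such as OCT4 was present in 1.89% of members (1.17 to 3.05), against 0.916% of all RAD21 peaks of ΔCTCF, 0.414% (0.201 to 0.853) of the members' flanks and 0.383% (0.263 to 0.557) of kept peaks with CTCF. The KLF core was at 2.37% (1.54 to 3.63), against 1.91% of all, 0.651% (0.364 to 1.16) of the flanks and 0.61% (0.453 to 0.821) of kept peaks with CTCF. For the ETS core the shares were 1.78% (1.08 to 2.91) at members, 2.07% of all, 0.237% (0.0921 to 0.607) in the flanks and 0.922% (0.724 to 1.17) at kept peaks with CTCF. For the ESRRB core they were 0.828% (0.402 to 1.7), 0.491% of all, 0.296% (0.126 to 0.691) in the flanks and 0.142% (0.0771 to 0.261) at kept peaks with CTCF.

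Each of these motifs was present at few members, from 7 for the ESRRB core to 20 for the KLF core. For all 4, the members' share did not separate from that of relocalized peaks without CTCF, with differences of 0.657 points (-0.106 to 1.83) for the octamer, -0.497 (-1.4 to 0.802) for the KLF core, -1.02 (-1.79 to 0.158) for the ETS core and 0.107 (-0.359 to 0.992) for the ESRRB core. Against all RAD21 peaks of ΔCTCF, the octamer stood higher at members by 0.978 points (0.238 to 2.15), and the differences for the other 3 had intervals that include 0. The TEAD core, a shorter motif, was at 6.75% of members, 7% of all and 4.79% of the flanks, with overlapping intervals. The NFY box was at 0.71% of members, 1.16% of all and 1.24% of the flanks. The NRF1 core was at 2 members (0.237%, against 0.246% of all), the YY1 core at 2 (0.237%, against 0.43%) and the ZNF143 site at none of 845 (against 0.0391%), which allows a share of up to 0.453% by the Wilson interval.

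**Figure D4:**
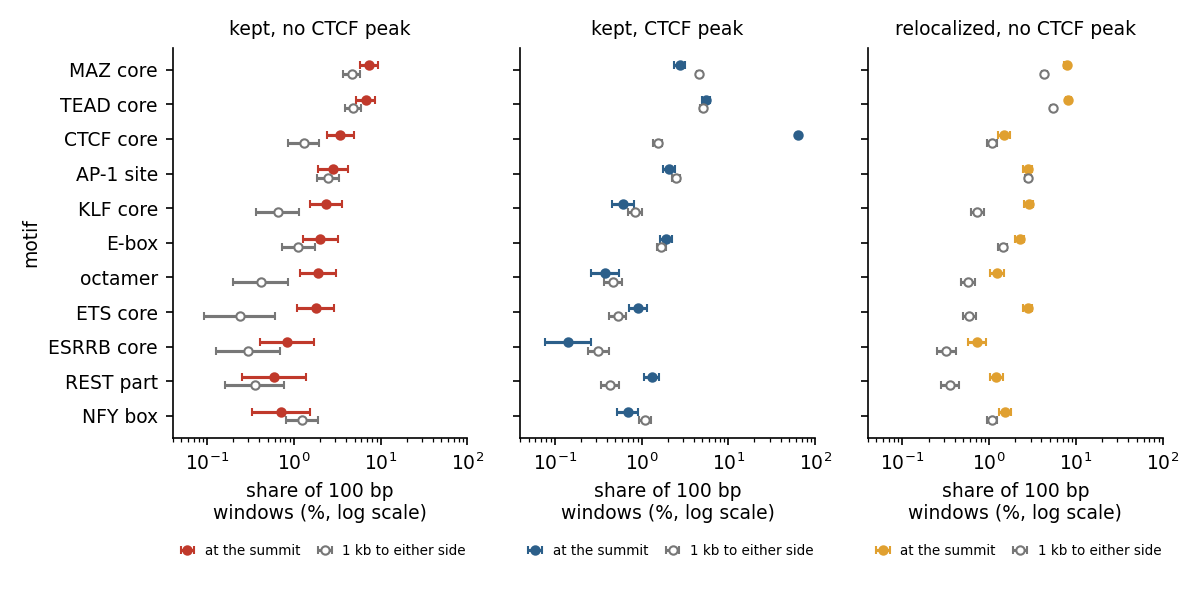
Share of 100 bp windows (%, log scale) that hold each of 11 motifs at the RAD21 summit (filled) and 1 kb to either side (open), with 95% Wilson intervals, in 3 classes of RAD21 peak. At members the octamer (1.89% against 0.414%), KLF core (2.37% against 0.651%) and ETS core (1.78% against 0.237%) stood above the flanks, and the CTCF core was at 3.43% against 63% at kept peaks with CTCF.

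By the GENCODE M21 annotation, the nearest genes of the members included genes of pluripotency. From a list of 37 pluripotency genes, 12 were the nearest coding gene of at least 1 member (32.4%), against 2.84% of all protein-coding genes: Esrrb, Jarid2, Klf2, Klf4, Klf5, Med13l, Mycn, Prdm14, Sall1, Sall4, Socs3 and Sox2. They accounted for 33 members (3.91%, 2.79 to 5.43), against 1.14% of all RAD21 peaks of ΔCTCF. The difference was 3.51 points (2.38 to 5.04) over kept peaks with CTCF, of which 0.397% had such a gene nearest, 3.61 points (2.44 to 5.14) over lost peaks without CTCF and 2.44 points (1.3 to 3.99) over relocalized peaks without CTCF, of which 1.46% did. With a reciprocal overlap of 50%, the share was 2.54% of members and 1.56% of relocalized peaks. Relocalized peaks reached more of the genes, 32 of the 37 (86.5%, against 25.2% of coding genes), from 9707 peaks. Kept peaks with CTCF reached 13 (35.1%, against 23.1%) and all RAD21 peaks of ΔCTCF 33 (89.2%, against 40.1%). Members near the same gene share a locus and are not independent, so these intervals are too narrow. The gene list was also written with earlier results of these data known. It includes Jarid2 (5 members) and Med13l (4 members), subunits of a Polycomb complex and of Mediator. Nearest genes also favor genes in gene-poor surroundings, and a nearest gene need not be the regulated one.

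The 33 members near pluripotency genes were mostly distal, with 4 (12.1%) at a promoter against 30.3% of the other members, a difference of -18.2 points (-26.2 to -2.66). RAD21 was called in ΔMAZ at 23 of them (69.7%) and in ΔCTCF/ΔMAZ at 16 (48.5%). The differences from the other members were 17.5 points (0.106 to 30.9) and 14.2 points (-2.08 to 30.9). Within 10 kb of a TSS, 6 of the 37 genes had a member, against 1.62% of protein-coding genes.

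A cluster of members lay downstream of Sox2, which encodes a core transcription factor of these cells and is known to be driven by a distal enhancer on that side. Members lay 106406, 107618 and 110894 bp downstream of its TSS (chr3:34756504-34761683). The first had fold enrichments of 5.89 (WT), 12 (ΔCTCF), 6.95 (ΔMAZ) and 4.02 (ΔCTCF/ΔMAZ), with MAZ peaks of 4.91 in WT and 5.34 in ΔCTCF. The middle one had 4.05, 7.18, 7.55 and 8.53, and the last 8.69, 14.1, 10.8 and 8.24, both without a MAZ peak. All 3 were called in all 4 RAD21 lists. Between them, at 109734 bp, lay a RAD21 peak of ΔCTCF that is no member because it overlapped a CTCF peak of WT with a fold enrichment of 29.3. Its RAD21 values were 26.9 (WT), 7.86 (ΔCTCF), 27.8 (ΔMAZ) and 5.49 (ΔCTCF/ΔMAZ). The CTCF-bound peak was thus the highest of the region in the states with CTCF, and the last member the highest in ΔCTCF. That member lay 650 bp from the CTCF peak of WT. Requiring no CTCF peak within 1 kb leaves it out.

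**Figure D5:**
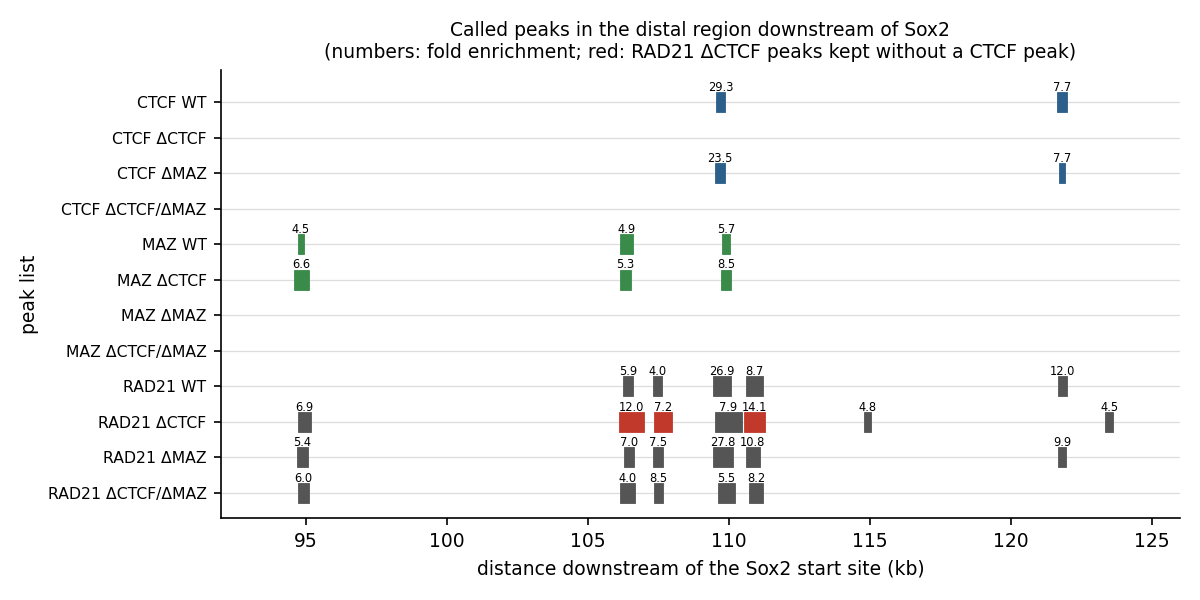
Called peaks of the 12 lists (rows) around the members downstream of Sox2, by distance from its start site (kb), with the fold enrichment printed above each peak and members in red. The 3 members (12, 7.18 and 14.1 in ΔCTCF) had a RAD21 peak in all 4 RAD21 lists, and the CTCF peak of WT between them (29.3) was not called after auxin.

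Clusters of members occurred at other loci as well. With summits up to 10 kb apart joined, the 845 members fell into 763 groups, of which 695 held 1 member and 10 held 3 or more. Beside Sox2, 2 of these 10 lay nearest to genes of the pluripotency list. For Klf4, a transcription factor of naive pluripotency, 3 members lay 53591 to 56269 bp away (chr4:55475236-55478307) and had 3.31 to 8.02 in ΔCTCF, with 3 called in ΔMAZ and 1 in ΔCTCF/ΔMAZ. For Med13l, a subunit of the Mediator kinase module, 4 members lay 115286 to 125071 bp away (chr5:118434891-118446404) and had 4.56 to 9.4, with 4 called in ΔMAZ and 3 in ΔCTCF/ΔMAZ. In some clusters neighboring members overlap the same peak of a shorter list, and 14 members shared their strongest RAD21 peak of WT with another member.

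The cluster with the most members lay over the start sites of Tfap2a, a transcription factor of ectoderm and neural crest, with 5 members in 6025 bp (chr13:40728210-40734234). Their fold enrichment in ΔCTCF was 3.1 to 5.07, 4 were called in ΔMAZ and 1 in ΔCTCF/ΔMAZ, and 1 had a MAZ peak of ΔCTCF. At Hes1, a repressor in the Notch pathway, 4 members lay 89 to 3849 bp from a coding TSS. The member at the Hes1 promoter had 9.85 (WT), 8.15 (ΔCTCF), 7.28 (ΔMAZ) and 6.95 (ΔCTCF/ΔMAZ), with MAZ peaks of 14 in WT and 18.5 in ΔCTCF, and it was the only one of the 4 called in ΔCTCF/ΔMAZ. At Tbl1xr1, 3 members lay 31 to 1500 bp from a coding TSS, with 7.29 to 12.2 in ΔCTCF.

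The remaining clusters of 3 were distal to their nearest coding TSS. They lay 163900 to 170667 bp from Klf6, a zinc finger transcription factor (5.28 to 8.44 in ΔCTCF), 40093 to 44825 bp from Sik1, a salt-inducible kinase (4.43 to 8.23), 39194 and 40388 bp from Tmem131 for 2 members and 40690 bp from Vwa3b for the third (3.65 to 7.66) and 149340 to 152465 bp from Akr1d1, a steroid reductase (5.48 to 9.12). Of these 12 members 7 were called in ΔMAZ and 6 in ΔCTCF/ΔMAZ.

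Members near other pluripotency genes, named here after their values were seen, differed in their calls. Prdm14, a regulator of naive pluripotency, had a member 41894 bp away with 9.45 (WT), 12.1 (ΔCTCF), 5.91 (ΔMAZ) and 6.1 (ΔCTCF/ΔMAZ). Esrrb, an orphan nuclear receptor, had a member 2693 bp from a TSS with 4.25, 8.36, 7.38 and 5.87. At Mycn, 1 of 5 members lay in Platr19, a non-coding gene, 152122 bp from the Mycn TSS, and had 7.83, 11.1, 7.26 and 8.65. Jarid2, an accessory subunit of Polycomb repressive complex 2, had 5 members, 4 of them called in ΔMAZ and 1 in ΔCTCF/ΔMAZ.

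Within 1 kb of a TSS, members were found for 3 pluripotency genes of 37, against 1.02% of protein-coding genes. Socs3, the feedback inhibitor of LIF signaling, had a member 115 bp from its TSS with 6.32 (WT), 6.54 (ΔCTCF), 6.49 (ΔMAZ) and 5.49 (ΔCTCF/ΔMAZ), and MAZ peaks of 10.2 in WT and 12.9 in ΔCTCF. Sall4 and Sall1, zinc finger transcription factors, had members at 127 and 557 bp with MAZ peaks in both states and no RAD21 peak in either knockout list, and their values were 6.09 and 7.39 in WT and 3.59 and 6.19 in ΔCTCF. The MAZ-bound Socs3 promoter thus kept RAD21 in the knockout cells by this measure and the MAZ-bound Sall4 and Sall1 promoters did not. The Socs3 and Sall4 members lay 297 and 106 bp from a CTCF peak of WT, and the Sall1 member 99025 bp from one. The Sall4 member was weak in ΔCTCF, at percentile 11.9 of that list.

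Other gene lists had at most 1 gene with a member within 1 kb, and with 1.02% of protein-coding genes so placed, counts of 0 and 1 are near the background for lists of this size. Hoxd10 was the only Hox gene of 39 with a member within 1 kb, 140 bp from its TSS, at 13 in WT, 6.91 in ΔCTCF, 13.5 in ΔMAZ and uncalled in ΔCTCF/ΔMAZ. Hist1h4d was the only one of 70 replication-dependent histone genes, at 97 bp, with 6.32 in WT and 4.53 in ΔCTCF and no knockout call. No gene had a member within 1 kb among 18 cohesin genes, 8 zinc finger genes of the study, 37 imprinted genes, 20 translation factors, 18 hosts of small RNAs (2 not in the annotation), 86 cytosolic ribosomal protein genes and 57 clustered protocadherin genes. Within 10 kb, 3 Hox genes (7.69%) and 4 histone genes (5.71%) had a member, against 1.62% of protein-coding genes, in each case the 1 member at Hoxd10 or Hist1h4d seen from neighboring genes. The remaining lists gave 0 cohesin genes, 0 of the zinc fingers, 0 protocadherins and 1 each of the imprinted, translation factor, small RNA host and ribosomal protein lists.

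Chromosome 13 held 72 members, 8.52% of members against 4.62% of all RAD21 peaks of ΔCTCF, the highest number of members on any of the 20 chromosomes with peaks. Among the 72 were the clusters at Tfap2a and Klf6 and the 5 members nearest to Jarid2. Chromosome X held 5 members.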

How the data were processed

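The 12 narrowPeak lists analysed here, 1 for each of CTCF, MAZ and RAD21 in WT, ΔCTCF, ΔMAZ and ΔCTCF/ΔMAZ mESCs, were deposited by the authors. The other 8 of the 20 samples were not analysed here. According to the study's methods, reads were mapped to mm10 with Bowtie 2, filtered with SAMtools, and peaks were called in each library with MACS. The release named and the format of the columns belong to different MACS generations, an input control is not given in the sources used here, and a Drosophila spike-in, added to the samples, was used to scale heat maps, density plots and tracks, with total reads used for RAD21 instead. The deposited columns hold a score, the fold enrichment at the summit (a linear ratio over local background), −log10 p and −log10 q of each peak, and the summit offset. The fold enrichment is this ratio after a small constant is added to both the pileup and the background. None of the columns is scaled between libraries.

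Overlap meant at least 1 bp, and the value of the strongest overlapping peak was used. Members were found with this rule, and the overlaps were compared with bedtools 2.31.1 on 11 lists, with 0 peaks different. Percentiles are ranks by fold enrichment within a list. Strength groups are 5 equal parts of the RAD21 ΔCTCF list or of the RAD21 WT list. Pileup, background and a relative depth index were solved from fold enrichment and −log10 p, and the depth index is an estimate, since total read counts are not given. Start sites and gene parts came from GENCODE M21, bases from the RefSeq GRCm38.p6 sequence. Motifs were searched on both strands in 100 bp at the summit and in the same length 1 kb to either side. Python 3.11.15, pandas 2.3.3 and scipy 1.17.1 were used, and the share and overlap functions were tested on simulated data. Shares have 95% Wilson intervals and differences Newcombe intervals, which cover counting error only. With 1 list per group no test between conditions was made.

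Peaks were named by rule: the 10 members of highest RAD21 fold enrichment in ΔCTCF, the 5 highest with a MAZ peak of ΔCTCF, the 5 highest called in all 4 RAD21 lists over 10 kb from a TSS, the 5 highest within 1 kb of a coding TSS, members within 1 kb of a gene of the lists, 3 peaks on either side of the rule's edge, and clusters of 3 or more. Other names were chosen after their values were seen. The members, gene lists and motifs were chosen with earlier results of these data known. Alternatives were other overlap definitions, q limits, list lengths, CTCF distances, promoter distances and motif windows.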

Additional observations from a re-analysis of the deposited data

How the results depend on the processing

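Of 67 recomputed values, 9 came from leaving out peaks that overlap a MAZ peak of the knockout lists and could not move, since no member overlaps one. Of the other 52 shares, 29 stayed within the interval of the reported share and 23 did not, and of the other 6 numbers of members, 4 stayed within 1.5 times 845 and 2 did not. With a reciprocal overlap of 50%, which gave 669 members, shares were 11.4% for a MAZ peak of ΔCTCF, 9.87% for a MAZ peak of WT, 57.7% for RAD21 of ΔMAZ, 26.3% for RAD21 of ΔCTCF/ΔMAZ, 22.1% for a CTCF peak of ΔMAZ, 26.3% for promoters and 20.2% for the CTCF core. With gaps of up to 500 bp counted as overlap (952 members), a MAZ peak of WT was at 25.9%. With RAD21 peaks of −log10 q of at least 5, 415 members remained by count, 62.7% called in ΔMAZ and 43.1% in ΔCTCF/ΔMAZ. With the strongest 6400 peaks of each RAD21 list there were 3 members, 33.3% called in ΔMAZ, 66.7% with a CTCF peak of ΔMAZ, and 0 of them with a MAZ peak, a RAD21 peak of ΔCTCF/ΔMAZ, a promoter or either core motif. Requiring no CTCF peak of the 4 lists within 1 kb (747 members) set the CTCF share of ΔMAZ to 0 by construction. A promoter distance of 2.5 kb gave 34.6%, windows of 200 bp gave 6.15% for the CTCF core and 16.2% for the MAZ core, and a CTCF core without mismatch was at 0.237%. The share of members nearest to a pluripotency gene ranged from 2.54% (reciprocal overlap) to 5.3% (q limit) and was 0 with the strongest 6400 peaks. No paired analysis was possible because replicate lists were lacking (1 list per group). A peak below the calling limit of a shallower library counts as absent here, and the RAD21 list of ΔCTCF/ΔMAZ, the shortest, came from the shallowest library by the index.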

Other observations

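Beyond the listed genes, several genes were the nearest coding gene of 5 or more members, and they were picked here after these counts were seen. Tbl1xr1, a corepressor subunit, had 9 members, and Klf6, a zinc finger transcription factor, had 7. Enc1, an actin-binding Kelch protein, and Tfap2a had 6 each. Counts of 5 were found for Klf3 and Tle4, which encode transcriptional repressors, for Rybp, a Polycomb subunit, for the phospholipase gene Plcb4, for Tmem17 and 1810013L24Rik, and for Jarid2, Mycn and Sall1 of the pluripotency list. Genes with 4 members were Akr1d1, Car2, Chordc1, Clybl, Etl4, Hes1, Hs6st1, Med13l, Nmbr, Prex2, Qk, Rbpj, Sik1, Tenm3, Tfap2c, Tle3 and Tns3. Large gene-poor surroundings give a gene more chances to be nearest, and this was not tested.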
